A study of Mus musculus with 6 samples.

Results

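The genes of macrophage iron handling described here, 8 in number, were followed across 6 microarrays of mouse bone marrow derived macrophages: Tfrc, Slc40a1, Slc11a1, Slc11a2, Hmox1, Fth1, Ftl1 and Cp. They were chosen by name, with earlier results of these data known, as 8 of the 27361 gene names on the array. Each was read at its brightest probe. All 8 were among the 19044 genes tested, and each was well above background on all 6 arrays with no saturated spot.

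Macrophages clear aged red cells, so they handle more iron than most cells. Iron enters bound to transferrin or inside haem, is released from haem by haem oxygenase, is stored in ferritin and leaves through ferroportin, with copper oxidases loading it onto transferrin outside the cell. Iron regulatory proteins also set the stability of the Tfrc message and the translation of the ferritin and ferroportin messages, so a transcript level is not a protein level.

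The FoxO1 KO macrophages came from LysMcre FoxO1 Fl/Fl mice, in which Cre is driven by a myeloid promoter, and the WT macrophages from FoxO1 Fl/Fl mice without Cre, all on the C57BL/6 strain. Only the KO cells carried Cre, so loss of Foxo1 and presence of Cre cannot be told apart. Marrow was grown for 7 days in 10% L929 cell medium. M1 cells then had LPS, a bacterial endotoxin, at 100 ng/ml and interferon-gamma at 20 ng/ml. M2 cells had the cytokines IL-4 and IL-13 at 10 ng/ml each. Both treatments lasted 24 hours, and M0 cells had no addition. Each genotype and state had 1 array. Nothing in the labels tells the animals apart, so p-values say nothing of the spread between animals. With 1 array per genotype and state, they draw on how far the state differences disagreed between KO and WT cells. Measurement error and any genotype effect that changed with state both enter that disagreement and cannot be told apart.

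Each level below is the log2 of a probe's signal divided by the 75th percentile of its array, a divisor of 532 to 628 signal units. Foxo1 itself gave 165 to 282 units on the KO arrays, against 1144 to 1559 units on the WT arrays. No label or file header places its probe inside or outside the deleted part of the gene. The 8 macrophage markers were all well above background on every array. The WT M0 array stood apart. All 16 liver transcripts on a marker list were well above background there, against 5 to 12 of them on the other arrays, and their summed signal was 35.1 times the array's 75th percentile, against 0.334 to 1.90 times elsewhere. Albumin, a protein made by hepatocytes, had a level of 3.49 on WT M0 and of -2.36 on KO M1. In bulk RNA, fewer cells of a type and less RNA per cell cannot be told apart. The WT M0 and WT M1 arrays shared a slide and the other 4 arrays shared a second one, so M1 and M0 were compared within a slide in each genotype, while only the M2 arrays of the 2 genotypes shared a slide.

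The probes are shown because the values belong to these 60 bases and not to whole genes. The first pair below reads the main importer and the exporter, which are described first. The next 3 lie apart along Slc11a2, 2 of them annotated to transcript variant 2 and the other to variant 1, and the last 2 are annotated to different variants of Cp. Positions are on mouse build mm9, as the array annotation gives them, and the probe sequences are from the same files. Capitals mark the letters AATAAA, a polyadenylation signal. Of all 41137 probes, 7.49% hold AATAAA or ATTAAA on the printed strand. Exon and UTR placement was not looked up, since no annotation of that build was used here.
Tfrc, chr16:32632255-32632314, plus strand: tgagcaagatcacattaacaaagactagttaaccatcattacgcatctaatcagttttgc
Slc40a1, chr1:45965255-45965314, minus strand: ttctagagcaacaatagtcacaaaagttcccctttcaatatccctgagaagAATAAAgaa
Slc11a2 brightest probe, annotated to transcript variant 2, chr15:100218333-100218392, minus strand: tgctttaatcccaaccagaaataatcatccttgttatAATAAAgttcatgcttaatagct
Slc11a2 probe 2, annotated to transcript variant 1, chr15:100223347-100223406, minus strand: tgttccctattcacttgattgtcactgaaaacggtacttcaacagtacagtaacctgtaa
Slc11a2 probe 3, annotated to transcript variant 2, chr15:100240516-100240575, minus strand: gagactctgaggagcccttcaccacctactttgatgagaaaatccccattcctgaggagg
Cp brighter probe, annotated to transcript variant 2, chr3:19889075-19889134, plus strand: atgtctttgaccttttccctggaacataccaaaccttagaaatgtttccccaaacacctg
Cp dimmer probe, annotated to transcript variant 4, chr3:19909387-19909446, plus strand: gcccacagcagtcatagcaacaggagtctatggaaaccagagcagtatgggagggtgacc

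The first comparison asks how the iron genes differed between LPS with interferon-gamma and no stimulus. After LPS and interferon-gamma, the transcripts for iron import by transferrin and for iron export both fell, those for haem breakdown, phagosomal metal transport and ceruloplasmin rose, and neither ferritin transcript passed the test. Of the 8 genes, 5 passed an adjusted p of 0.05 in M1 minus M0, 3 of them higher and 2 lower, where 25.6% of all tested genes passed, 11.6% higher and 14.0% lower. With arrays centred on their median, 58.8% of all calls were higher in M1, against 45.3% with the 75th percentile. The median absolute difference over the 8 genes was 1.41, against 0.53 over all tested genes. The 8 genes were chosen with earlier results of these data known, so these counts and medians only describe them.

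Tfrc encodes the transferrin receptor, which carries transferrin-bound iron into the cell. Its level was 0.40 on the KO M1 array and -0.02 on the WT M1 array, 4.79 on KO M2 and 4.75 on WT M2, and 2.51 on KO M0 and 2.08 on WT M0. M1 lay lowest and M2 highest in both genotypes, with no overlap between states. The share of all genes whose states lay apart was not counted, here or for the genes below. Tfrc fell by 2.10 in M1 relative to M0 (SE 0.19, 4.30-fold lower, adjusted p = 0.00985), with -2.10 in KO and -2.11 in WT cells. Its probe was printed 10 times on each array.

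Slc40a1 encodes ferroportin, the iron exporter of vertebrate cells. It read 2.80 on KO M1 and 2.85 on WT M1, 3.88 on KO M2 and 3.58 on WT M2, and 6.11 on KO M0 and 5.73 on WT M0. Both stimulated states lay below both M0 arrays. It fell by 3.10 in M1 relative to M0 (SE 0.19, 8.58-fold lower, adjusted p = 0.00716), which was the lowest adjusted p among the 8 genes in this comparison.

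Slc11a1 encodes NRAMP1, a transporter that draws divalent metals out of the phagosome. C57BL/6 mice are known to carry a loss-of-function allele, and the transcript is not a measure of transport. Its level was 7.45 on KO M1 and 7.42 on WT M1, 5.32 on KO M2 and 5.53 on WT M2, and 6.39 on KO M0 and 6.43 on WT M0. The states did not overlap, and M1 was highest and M2 lowest. Slc11a1 rose by 1.03 in M1 relative to M0 (SE 0.16, 2.04-fold, adjusted p = 0.0235). The call was lost with quantile normalization (adjusted p = 0.0541), normexp background correction (0.0514) and the authors' log2 table (0.0695), and the difference was 0.60 in that table.

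Slc11a2 encodes DMT1, the relative of NRAMP1 that moves ferrous iron from endosomes to the cytosol. Its brightest probe read 3.71 on KO M1 and 3.26 on WT M1, 2.55 on KO M2 and 2.44 on WT M2, and 3.08 on KO M0 and 2.65 on WT M0. At this probe the states did not overlap, with M1 highest and M2 lowest. The M1 minus M0 difference of 0.62 did not pass (SE 0.18, adjusted p = 0.0769). The other 2 probes, printed above, gave 0.64 and 0.46, and at both of them the states overlapped.

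Hmox1 encodes haem oxygenase 1, which opens the haem ring and frees its iron. It read 8.51 on KO M1 and 8.15 on WT M1, 6.62 on KO M2 and 6.01 on WT M2, and 6.58 on KO M0 and 6.49 on WT M0. Both M1 arrays lay above the other 4, and M2 overlapped M0. Hmox1 rose by 1.80 in M1 relative to M0 (SE 0.20, 3.48-fold, adjusted p = 0.0130), and a second, much dimmer probe of the gene gave a difference of 1.60.

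**Figure D1:**
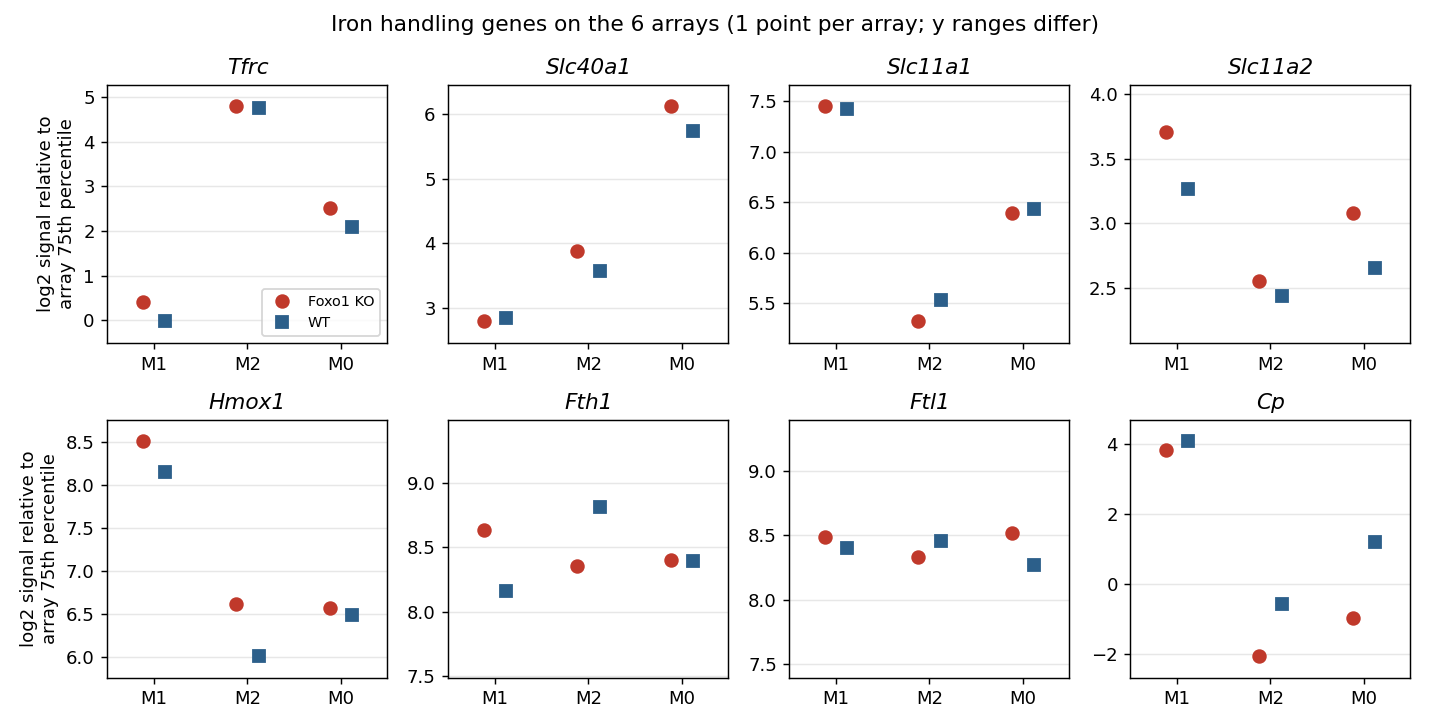
Levels of the 8 genes on the 6 arrays, as log2 signal relative to the array's 75th percentile (y axis) by state (x axis), with 1 point per array, circles for Foxo1 KO and squares for WT. Tfrc was at 4.79 and 4.75 on the M2 arrays and at 0.40 and -0.02 on the M1 arrays, while Ftl1 stayed between 8.27 and 8.52 on all 6.

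Fth1 and Ftl1 encode the heavy and light chains of ferritin, the protein shell that stores iron. Fth1 read 8.64 on KO M1 and 8.16 on WT M1, 8.36 on KO M2 and 8.81 on WT M2, and 8.40 on both the KO M0 and the WT M0 array. Ftl1 read 8.48 on KO M1 and 8.40 on WT M1, 8.33 on KO M2 and 8.45 on WT M2, and 8.52 on KO M0 and 8.27 on WT M0. The states overlapped for both genes. The M1 minus M0 difference was -0.00 for Fth1 (SE 0.28, adjusted p = 0.999, 95% interval from -0.79 to 0.78) and 0.05 for Ftl1 (SE 0.18, adjusted p = 0.867, interval from -0.45 to 0.54). Changes within those intervals could not be detected with 2 arrays a state. Both probes lay 0.58 to 1.82 log2 units under the brightest probe of their array, and how far signals that bright are compressed was not tested. Ferritin genes have near-identical copies in the mouse genome, so these signals may include their transcripts.

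Cp encodes ceruloplasmin, a copper oxidase that converts exported iron to the form transferrin binds, made mainly by hepatocytes and also by macrophages. The brighter probe, first of the 2 printed above, gave 8184 units on KO M1 and 9929 on WT M1, 150 on KO M2 and 374 on WT M2, and 306 on KO M0 and 1219 on WT M0. The M1 arrays lay above all others, and M2 overlapped M0. Cp rose by 3.83 in M1 relative to M0 (SE 0.51, 14.3-fold, adjusted p = 0.0180), by 4.78 in KO and by 2.88 in WT cells. The dimmer probe differed by 3.74 in KO and by 2.44 in WT cells. Liver transcripts were high on the WT M0 array, as given above, and their part in its Cp value was not tested. Without the WT M0 array the difference was 4.47 (adjusted p = 0.110). The KO pair of arrays, whose difference of 4.78 does not use WT M0, had liver sums of 1.90 on M1 and 0.506 on M0.

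With slide as a term in the model, the same 5 genes passed in M1 minus M0, with Slc11a1 at an adjusted p of 0.0302. M1 and M0 shared a slide in each genotype, so that term could not change these differences and only their SE moved. Its differences between states are those of the fit without the WT M2 array, and its KO minus WT rests on the M2 arrays alone. Leaving out any one of the KO M1, WT M1, KO M0 or WT M0 arrays left no call among the 8 genes, and none among all genes.

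**Figure D2:**
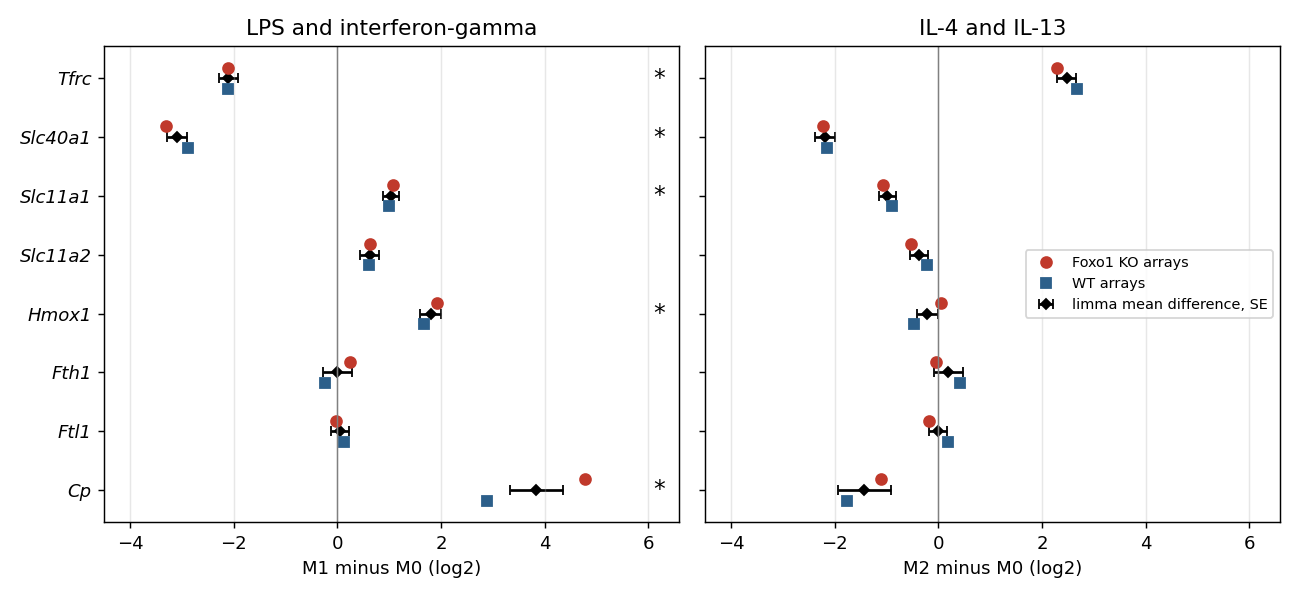
Differences of M1 from M0 (left) and of M2 from M0 (right) in log2 units on the x axis, with circles for the Foxo1 KO pair of arrays, squares for the WT pair and diamonds with SE bars for the limma estimate over both. Asterisks mark an adjusted p under 0.05, which 5 genes had in M1 minus M0 and none in M2 minus M0.

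The second comparison asks the same of IL-4 with IL-13. None of the 8 genes passed in M2 minus M0, where 19 genes in all (0.0998%) passed, 0.0788% higher and 0.021% lower, and 3 of the 8 had an unadjusted p under 0.05, as did 3641 of all 19044. The differences furthest from 0 among the 8 belonged to the importer and the exporter. For Tfrc the M2 minus M0 difference was 2.47 (SE 0.19, 5.56-fold, adjusted p = 0.0579), with 2.28 in KO and 2.66 in WT cells. For Slc40a1 it was -2.19 (SE 0.19, 4.57-fold, adjusted p = 0.0624), with -2.23 in KO and -2.15 in WT cells. The KO pair shares a slide and the WT pair does not.

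Both genes passed with median centring, quantile normalization, the authors' log2 table, the filter for probes above background on all 6 arrays and an intensity trend in the variance prior, with adjusted p from 0.00245 to 0.0434 for Tfrc and from 0.00282 to 0.0470 for Slc40a1. They did not pass with slide as a term (0.200 and 0.226), where the differences were 2.28 and -2.13, nor with normexp (0.147 and 0.188), the mean of all probes (0.0680 and 0.0703) or no filter on dim probes (0.103 for both). Slc11a1 had a difference of -0.99 (adjusted p = 0.112) and passed with the intensity trend alone (0.0161). Cp had -1.43 (adjusted p = 0.264), with -1.10 in KO and -1.76 in WT cells, and -0.79 without the WT M0 array. Slc11a2, Hmox1, Fth1 and Ftl1 lay between -0.37 and 0.19.

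The M1 and M2 states were also set against each other. Of the 8 genes, 6 passed in M1 minus M2, 4 higher and 2 lower in M1, where 25.3% of all tested genes passed, 11.7% higher and 13.6% lower. Cp rose by 5.26 in M1 relative to M2 (SE 0.51, adjusted p = 0.0101) and Tfrc fell by 4.58 (SE 0.19, 23.9-fold lower, adjusted p = 0.00506). Slc11a1 rose by 2.02 (adjusted p = 0.00758) and Hmox1 by 2.01 (adjusted p = 0.0103), 4.04-fold and 4.03-fold. These 4 genes also passed under every normalization, filter, prior and slide alternative run, and none of the 8 passed without the KO M1 or the WT M1 array.

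Slc11a2 rose by 0.99 in M1 relative to M2 (adjusted p = 0.0297) and Slc40a1 fell by 0.91 (adjusted p = 0.0409), and these calls were less stable. Slc11a2 missed the threshold with quantile normalization, normexp, the authors' table and slide as a term (adjusted p from 0.0523 to 0.0937). Probe 3 of the gene gave 0.23, against 0.99 at the brightest and 1.29 at probe 2. Slc40a1 missed it with median centring, where its difference was -0.59 (adjusted p = 0.217), and also with normexp (-0.90), without a filter on dim probes (-0.91) and with slide as a term (-0.98), where the difference stayed about as large. Fth1 and Ftl1 differed by -0.19 and 0.05 and did not pass.

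Over the 6 arrays, Tfrc and Slc11a1 ran opposite to each other (Pearson r = -0.99, 6 arrays that share the same 3 states), given as a description only. Like profiles were looked for only for the 6 members whose levels ranged over at least 1 log2 unit, which leaves out Fth1 and Ftl1. The genes with the nearest centred profiles, by root mean square difference over the 6 arrays among 15877 genes above background on all of them, were Tmem158 for Tfrc (0.242 log2 units), Leprel2 for Slc40a1 (0.246), Ikbke for Slc11a1 (0.0789), Nasp for Slc11a2 (0.0655), Gdap10 for Hmox1 (0.104) and Ddx60 for Cp (0.397). The next nearest were Tbc1d16 for Tfrc, Hmga2 for Slc40a1, Rasa4 for Slc11a1, Nkiras2 for Slc11a2, Tbc1d9 for Hmox1 and Gpr18 for Cp. After those came Slc30a4 for Tfrc, Pgm2l1 for Slc40a1, AF000427 for Slc11a1, Pgs1 for Hmox1 and Phf11d for Cp. For Slc11a2 it was A_52_P260145, a probe without a gene name.

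The remaining comparison asks whether Foxo1 loss went with a difference in these genes. None of the 8 genes passed in KO minus WT over the 3 states, and neither did any of the 19044 (0.0%), of which 2159 had an unadjusted p under 0.05. Among the 8, Cp had an unadjusted p under 0.05. Its difference was -1.31 (SE 0.42, adjusted p = 0.424). For the other 7 genes the estimates lay between -0.07 for Slc11a1 and 0.35 for Hmox1. Hmox1, Slc11a2 and Tfrc had higher values on the KO array in every state, with means of 0.35, 0.33 and 0.30, and intervals that reached -0.10, -0.07 and -0.13 at their lower ends. For Hmox1 in M0 that direction turned with normexp (-0.26) and with the mean of all probes (-0.09), against 0.09 as reported, where the median over all genes was 0.08. The second Hmox1 probe read -0.27 in M0 and 0.61 in M2. The share of all genes with higher values on the KO array in every state was not counted. The median KO minus WT over genes well above background on both arrays was 0.10 in M1 and -0.05 in M2.

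Within a state there was 1 array against 1, so these differences have no test. Cp was at least 2-fold lower in KO in 2 states, at -0.26 in M1, -1.51 in M2 and -2.16 in M0. Among genes well above background on both arrays, 1.02% were at least 2-fold lower in KO in M1, 3.89% in M2 and 3.6% in M0, while 9.31%, 2.33% and 5.76% were at least 2-fold higher in the same order of states. These shares moved with the scaling. In M1, 1550 genes were higher and 170 lower, against 695 and 550 with median centring, and in M0, 990 were higher and 619 lower, against 4642 and 195 with normexp. The Cp difference under the alternatives run lay between -2.23 and -1.67 in M0 and between -1.52 and -1.20 in M2. The dimmer Cp probe gave 0.09 in M1 and -1.21 in M0. In M2 it was not well above background on the KO array, and its WT signal was at least 1.75-fold brighter, a bound set by the lowest signal among probes well above background on the KO array.

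Other cells' markers stood beside the Cp values as follows. In M0 the liver sum was 0.506 in KO and 35.1 in WT. In M2 it was 0.559 in KO and 0.672 in WT, with 8 of 16 liver markers above background on each array. The sum over 10 neutrophil markers was 6.63 in KO and 26.5 in WT in M2, and 14.9 in KO and 81.9 in WT in M0. The sum over 10 stromal markers was 4.70 in KO and 9.89 in WT in M2, and 6.63 in KO and 18.2 in WT in M0. The part of these cell types in the Cp differences was not tested. Without the WT M0 array the Cp estimate was -0.88, and within the slide that holds both M2 arrays it was -1.51.

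**Figure D3:**
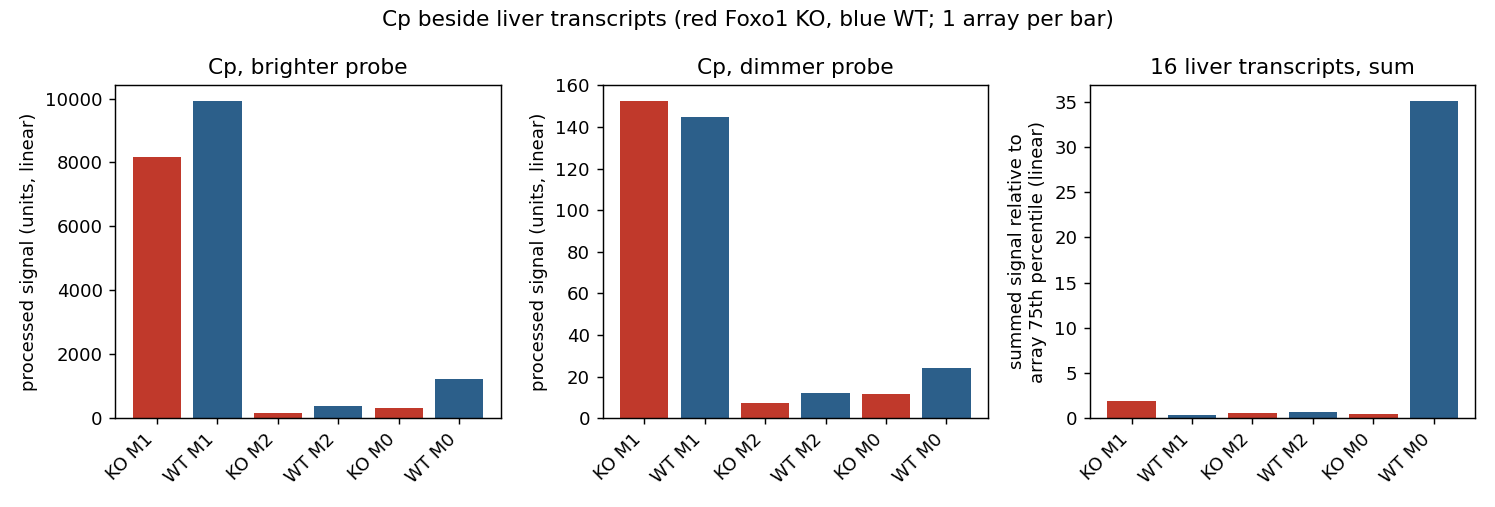
Processed signal of the brighter and the dimmer Cp probe in units (left and centre) and the summed signal of 16 liver transcripts relative to the array's 75th percentile (right), on linear axes from 0, with 1 bar per array, red for Foxo1 KO and blue for WT. Cp was highest on the M1 arrays, at 8184 and 9929 units at its brighter probe, and the liver sum was highest on WT M0, at 35.1.

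Of the other members, none reached 2-fold in any state. The widest was Hmox1 in M2, at 0.61, followed by Fth1 at 0.47 in M1 and -0.46 in M2. Fth1 thus had opposite signs in the stimulated states, and 0.01 in M0. Tfrc differed by 0.42 in both M1 and M0 and by 0.04 in M2. Slc40a1 had -0.05 in M1, 0.30 in M2 and 0.38 in M0. These values also moved with the scaling. With normexp in M0, Tfrc differed by 0.06 and Slc40a1 by -0.05. With median centring in M1, Tfrc differed by 0.10 and Fth1 by 0.15.

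**Figure D4:**
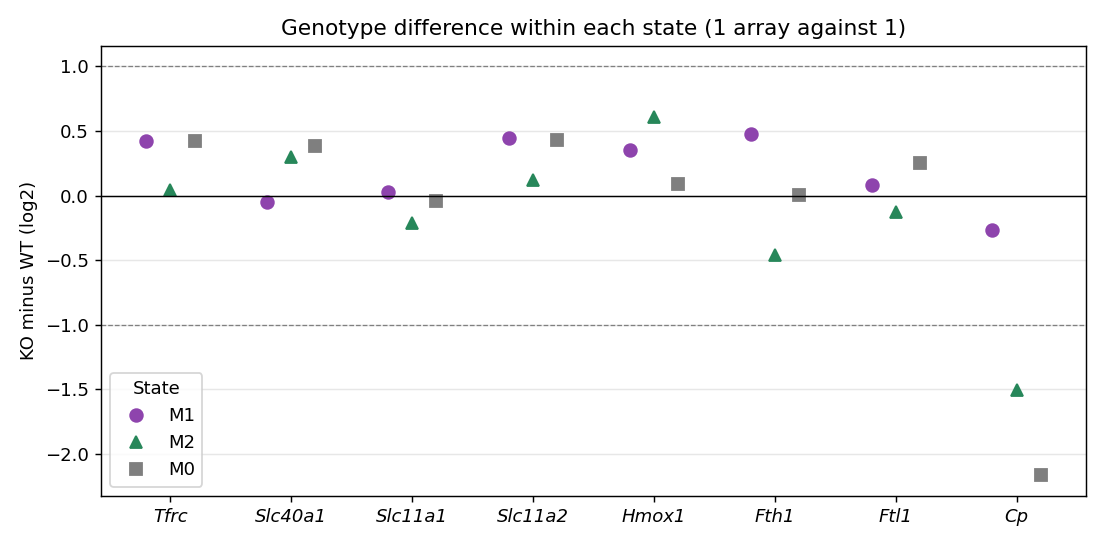
KO minus WT in log2 units (y axis) for each gene (x axis) in M1, M2 and M0, each point 1 array against 1, with dashed lines at 2-fold. Cp in M2 (-1.51) and in M0 (-2.16) lay beyond 2-fold and no other point did.

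Lists of other iron genes were read in the same fit. In M1 minus M0, 1 of the 13 tested genes of haem and haemoglobin handling was higher and 5 were lower, 2 of 13 for other iron transport, oxidation and reduction were higher and 4 lower, 3 of 13 for iron regulation and ferritin turnover were higher and 2 lower, and 2 of 19 for haem and iron-sulphur cluster synthesis were higher and 3 lower. Over all tested genes 11.6% were called higher and 14.0% lower. The medians were -0.67, -0.61, -0.16 and -0.01 in that order, against 0.03 over all tested genes. In M2 minus M0 and in KO minus WT over the 3 states no gene of any list passed.

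Of the haem handling genes, 7 of the 13 tested did not pass. Cd163, the receptor for haemoglobin bound to haptoglobin, was not well above background on either M1 array. It was at least 4.75-fold lower in M1 than in M0, a bound that was not tested. Its measured means were -8.36 in M1 and -3.99 in M0. The adjusted p of 0.0233 from the fit belongs to the difference of those means, which rests on M1 readings below background. Abcg2, an exporter of haem and its precursors, fell by 2.60 (adjusted p = 0.00915), and Blvra, which reduces the biliverdin that haem oxygenase makes, fell by 1.02. Spic, a transcription factor of red pulp macrophages, rose by 1.71 (adjusted p = 0.0242), in the same direction as Hmox1.

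Among transport genes, Trf, which encodes transferrin, fell by 3.24 in M1 relative to M0 (adjusted p = 0.00859), as did Slc39a8, a zinc and iron importer, by 2.64, and Steap3, the endosomal reductase that serves transferrin uptake, by 1.67. Lcn2, a binder of bacterial siderophores, rose by 5.08 (adjusted p = 0.0123), and Ltf, the lactoferrin of neutrophil granules, fell by 4.72 (adjusted p = 0.0112). Both had lower values on the KO array in every state, and differences of that kind were a rule for naming genes. How many of all tested genes had lower values in every state was not counted. Lcn2 differed by -1.15 in M1 and -3.09 in M0, and in M2, where it was not well above background on the KO array, WT was at least 5.21-fold brighter. Ltf differed by -1.32 in M1, -2.49 in M2 and -3.01 in M0, and it is itself on the neutrophil list, whose sums in M2 and M0 are given above. In M1 that sum was 4.42 in KO and 3.93 in WT. The highest marker on both M1 arrays was S100a8, at 1.61 in KO and 1.01 in WT. The median level of the list in M1 was -4.68 in KO and -4.28 in WT. The part of neutrophils in these values was not tested.

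Among regulators, Hfe, which modifies iron sensing and uptake, fell by 2.06 in M1 relative to M0 (adjusted p = 0.00992), and Ncoa4, the receptor that takes ferritin to the lysosome, fell by 1.44. Zfp36, an RNA-binding protein that destabilises messages, rose by 1.60. Fbxl5, the ubiquitin ligase part that senses iron and removes iron regulatory protein, rose by 1.04, and Rnf217, a ubiquitin ligase for ferroportin, rose by 1.08. In haem synthesis, Alas1, its rate-limiting first enzyme outside red cells, rose by 1.38 and Abcb10, a mitochondrial transporter, fell by 1.11. The position of each of these genes against the 8 is shown in the plot of responses to both stimuli.

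**Figure D5:**
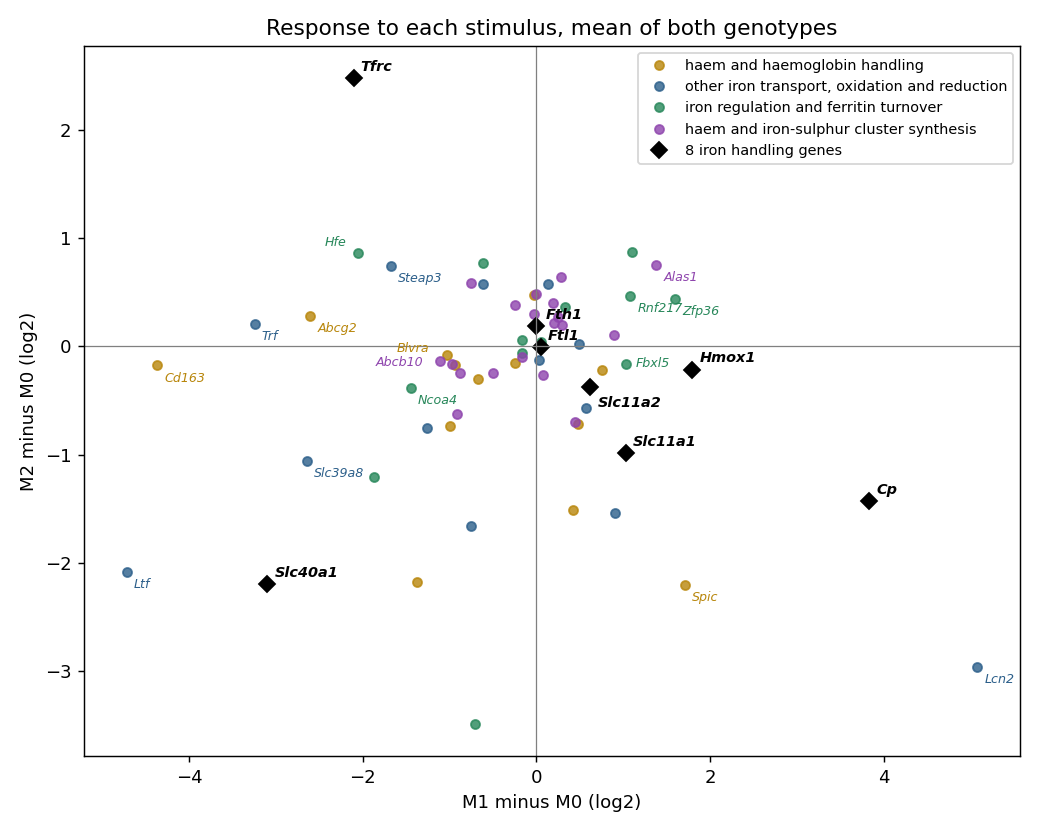
M1 minus M0 (x axis) against M2 minus M0 (y axis), both in log2 units as limma estimates over both genotypes, for the 8 genes (diamonds) and 4 lists of other iron genes (circles, coloured by list), which share the M0 arrays on both axes. Tfrc lies at -2.10 and 2.47 and Slc40a1 at -3.10 and -2.19, and Cp lies at 3.83 and -1.43. The point for Cd163 is its measured value, below background in M1.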

How the data were processed

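Total RNA was labelled with Cy3 and hybridised to 1-colour Agilent mouse arrays. The scanner files the authors deposited hold processed intensity per spot after background subtraction, and their headers name Agilent's software for spot extraction (Feature Extraction, version 10.7.3.1). The authors also deposited a log2 table of the same arrays, whose column medians were 5.39 to 5.41. Each column correlated best with its own array, and its scaling and centring are not given in the sources used here.

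Here control and flagged spots were left out, spots of a probe were averaged, and log2 intensity minus each array's 75th percentile was taken over 41137 probes. Genes were read at their brightest probe and kept if well above background on at least 2 arrays. All 6 arrays entered limma 3.58.1 (R 4.3.3) with state and genotype as additive terms, which leaves 2 residual degrees of freedom. The residual holds state differences that were unlike in KO and WT, since no array repeats another. Adjusted p-values are Benjamini-Hochberg over 19044 genes, with a threshold of 0.05. The intervals are 95% intervals of the fit. The number of arrays limits the precision.

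The 8 genes and all lists were chosen with earlier results of these data known. All 8 were described. Genes of the other lists were named where they passed, were at least 2-fold in the estimate over both genotypes and had the same direction in each, or at least 2-fold between genotypes the same way in all 3 states. The fit was tested on simulated data with independent noise, added M1 differences and no genotype effect. That test does not bear on whether state and genotype add up in these data. Alternatives covered centring, normalization, background correction, probe choice, filters, slide, variance prior and leaving out each array.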

Additional observations from a re-analysis of the deposited data

Results flagged for a closer look

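State differences of 3 genes had opposite signs in the 2 genotypes, each from 1 array against 1, and the differences between genotypes were not tested. Hmox1 in M2 minus M0 was 0.0443 in KO and -0.473 in WT. Fth1 was 0.23 in KO and -0.23 in WT in M1 minus M0, and -0.0484 in KO and 0.42 in WT in M2 minus M0. Ftl1 was -0.0345 in KO and 0.13 in WT in M1 minus M0, and -0.19 in KO and 0.18 in WT in M2 minus M0.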

How the results depend on the processing

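No paired analysis was possible because each genotype and state had 1 array and the labels carry no replicate numbers. In the fitted comparisons, 480 differences of the 8 genes were recomputed. Of these, 385 kept their direction and their side of the threshold, 53 no longer passed, 12 newly passed and 30 changed sign. The sign changes were all in Fth1 and Ftl1, and none of those values was called. The slide term and leaving out WT M2 gave the same state differences, and both are among the 480. Many of the 480 could not change direction. The filters and the intensity trend leave a difference as it is and move only its p-value. So does the mean of all probes for a gene with a single probe. Leaving out an array of one state cannot move the difference between the other states. KO minus WT within a state was not among them. There, Slc40a1 in M0 went from 0.38 to -0.05 with normexp, and Slc11a1 in M1 from 0.03 to -0.30 with median centring. The cause of the changes in this section was not tested.

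In M1 minus M0, 4867 genes were called, 1287 with normexp and 0 to 5403 when 1 array was left out, with 0 to 5 of the 8 genes. In M1 minus M2, 4815 genes were called, 1363 with normexp, 2188 with slide as a term and 0 to 4748 when 1 array was left out, with 0 to 4 of the 8. In M2 minus M0, 19 genes were called, 478 with median centring, 147 with quantile normalization, 153 in the authors' log2 table, 272 with the filter on all 6 arrays, 1074 with the intensity trend, and 0 with normexp, without a filter, with slide as a term or with any 1 array left out. Of the 8 genes, 2 passed there with median centring, quantile normalization, the authors' table or the stricter filter, and 3 with the trend. In KO minus WT, 35 genes passed with the trend, against 0 with the reported settings and 0 with any 1 array left out.

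Fth1 in M1 minus M0 was 0.23 with median centring, 0.30 with normexp and -0.35 to 0.35 without 1 array. Ftl1 in M1 minus M0 was -0.17 with quantile normalization, -0.0755 in the authors' table and -0.0867 to 0.183 without 1 array. In M2 minus M0, Fth1 was -0.16 with slide as a term and -0.16 to 0.53 without 1 array, and Ftl1 was 0.19 with normexp and -0.15 to 0.14 without 1 array. In M1 minus M2, Fth1 was 0.14 with median centring, 0.16 with slide and -0.54 to 0.16 without 1 array, and Ftl1 was -0.0880 with quantile normalization, -0.0447 in the authors' table and -0.0939 to 0.198 without 1 array. In KO minus WT, Fth1 was -0.0846 with median centring, -0.00694 with quantile normalization, -0.0213 with normexp, -0.46 with slide and -0.23 to 0.24 without 1 array. Ftl1 was -0.0231 with median centring, -0.0382 with normexp, -0.0449 in the authors' table, -0.13 with slide and -0.0211 to 0.166 without 1 array.

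Median centring moved every difference by 0.23 in M1 minus M0 and by 0.32 in M1 minus M2. One array per group, no statement of separate animals, liver transcripts on WT M0, and genotype pairs split over slides in M1 and M0 limit the genotype values.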
